A study of Homo sapiens with 2 samples.

Results

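Expression of DNA repair genes was described by pathway in HL-60 cells, a human line established from a promyelocytic leukaemia. The members were 57 listed genes of mismatch repair, base excision repair, direct reversal, nucleotide excision repair, the Fanconi anaemia pathway, homologous recombination, damage signalling and end joining. Of these, 52 had a probe set of their own and were measured, out of 18404 measured genes in all, and each of the 52 rested on 1 probe set. ERCC5, ERCC6, FANCA, FANCD2 and BRCA2 had no probe set with only their own symbol and were not analysed here. RNA of the wild-type (WT) line was hybridised to 2 arrays (Affymetrix Human Gene 1.0 ST), which carry the replicate numbers 1 and 2. The cells received no treatment named in the labels and were kept at 37 °C and 5% CO2 in DMEM with 10% serum. Both arrays belong to 1 group, so there was no contrast to test, and every value is a description of these arrays. Whether they stand for separate cultures is not in the labels, and the spread between them may be technical.

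DNA repair is divided among pathways that each read a different kind of lesion. Mismatch repair corrects errors left behind by the replication machinery, base excision repair removes small damaged bases, and nucleotide excision repair cuts out bulky lesions such as those made by ultraviolet light. The Fanconi anaemia proteins act on crosslinks between the strands. Homologous recombination mends broken chromosomes from the sister chromatid during and after replication, whereas end joining ligates broken ends without a template. In myeloid cells repair is of interest because inherited defects of the Fanconi genes lead to marrow failure and leukaemia, and because alkylating and crosslinking drugs are used in treatment.

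Values are log2 RMA signals, and a probe set's signal depends on its probes as well as on its transcript, so the order of signals among genes is not an order of transcript abundance. A gene was called above background where it exceeded, on both arrays, the 95th percentile of 360 olfactory receptor genes, which was 2.98 on replicate 1 and 2.88 on replicate 2. A stricter, second threshold was the 95th percentile of 115 genes of beta-defensins, bitter taste receptors and keratin-associated proteins (5.41 and 5.23). Over all genes the SD of replicate 2 minus replicate 1 was 0.39, or 0.28 per array, which is the guide to the error of a single value. All 9 measured genes of a promyelocyte and myeloid marker list passed the olfactory threshold and 5 the second, beside 55.8% and 17.0% of all genes. The 9 ranged from AZU1, the lowest (3.01 on replicate 1 and 3.19 on replicate 2), to MYB, the highest (9.29 and 9.53), and included MPO (8.21 and 7.48). Markers of mature neutrophils passed in 1 of 6 cases, of monocytes in 0 of 5, of T and NK cells in 3 of 7, of B cells in 2 of 4, of erythroid cells in 2 of 4 and of epithelium and stroma in 2 of 6, and 0 of these genes passed the second threshold.

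Of the 52 measured repair genes, 46 (88.5%) passed the olfactory threshold on both arrays, beside 55.8% of all genes. The second threshold was passed by 22 of them (42.3%), beside 17.0% of all genes. Their median signal was 5.24 on replicate 1 and 4.91 on replicate 2, where the median of all genes was 3.35 and 3.34. Taken gene by gene, the median difference between the arrays was smaller, -0.06 for members and -0.04 for all genes. The 6 members that did not pass on both arrays were MLH3, NTHL1, NEIL1, ERCC8, FANCC and FANCF, which come from 4 different pathways. A list of 41 DNA replication genes had 40 of its genes past the olfactory threshold, of which 27 (65.9% of the list) also cleared the second. Some genes of this list, such as PCNA, RFC4, FEN1 and RPA2, are counted again among the other repair genes below. The polymerase subunit POLD1, the lowest of the list, read 3.11 on replicate 1 and 2.82 on replicate 2. Because fewer cells and less RNA per cell cannot be told apart in a bulk extract, a low signal may stand for a low level in all cells or expression in some of them.

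**Figure D1:**
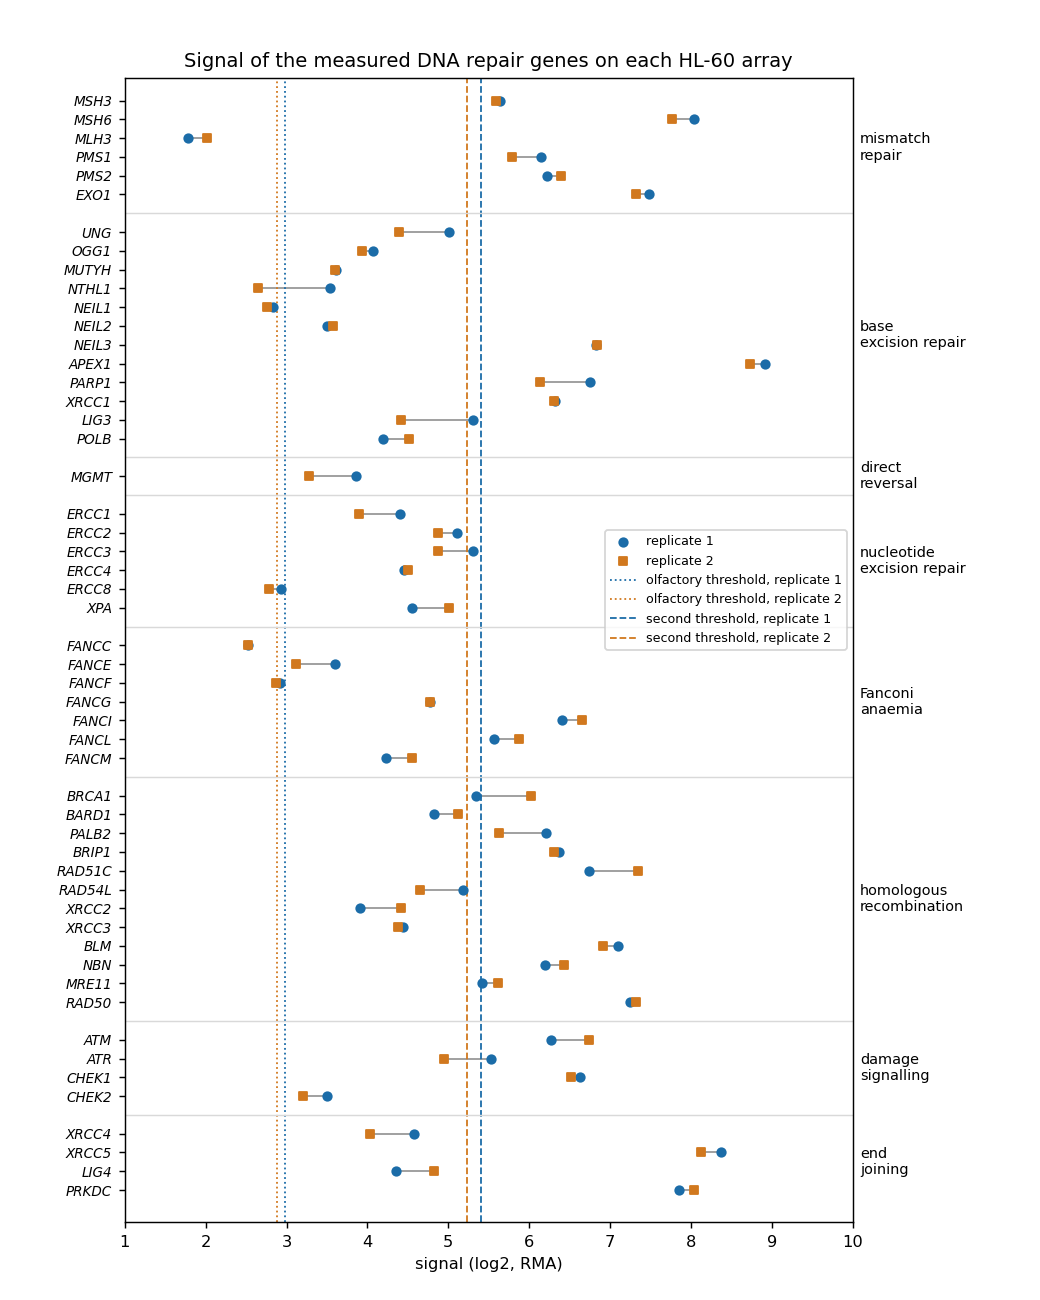
Signal (log2, RMA; horizontal axis) of the 52 measured repair genes on replicate 1 (circles) and replicate 2 (squares), grouped by pathway; the grey line joins the 2 arrays, and dotted and dashed lines mark the olfactory and second thresholds of each array. Of these, 46 lie right of the dotted lines on both arrays and 22 lie right of the dashed lines.

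The mismatch repair genes lay either above both thresholds or below both. The mismatch sensor subunit MSH6, which recognises base mismatches, read 8.03 on replicate 1 and 7.76 on replicate 2. MSH3, its counterpart for larger insertion and deletion loops, read 5.64 and 5.59. Both sensors were thus above the second threshold on each array, MSH3 on replicate 1 by less than the spread of a single array. Of the MutL homologues, PMS2, the endonuclease subunit, read 6.22 and 6.39, and PMS1, whose role in repair is less clear, read 6.15 and 5.78. MLH3, which acts mainly in meiotic recombination, read 1.79 and 2.02, under the olfactory threshold on both arrays. EXO1, the exonuclease that removes the mismatched strand, read 7.48 and 7.32. In all, 5 of 6 genes (83.3%) passed both thresholds, beside 55.8% of all genes for the olfactory and 17.0% for the second. The differences between the arrays ran from -0.37 to 0.23. The PMS2 signal is uncertain, because 15 pseudogenes carry its name in the RefSeq gene table and probes may match them.

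Promoter sequences are shown for members whose RefSeq promoter window (250 bases before to 50 after an annotated start, GRCh38.p14) held an E2F-like word, because E2F factors drive many genes of the S phase and 4 of the 6 mismatch repair genes were among them. The words searched on both strands were TTTCCCGC, TTTCGCGC, TTTGCCGC and TTTGGCGC, and a match is a description of letters, not a binding site. Each stretch runs from 120 bases before the annotated start to 30 bases from it on, and capitals mark the words. The MSH3 words overlap each other on opposite strands, 107 and 103 bases upstream of the start. The MSH6 and EXO1 words begin 3 and 4 bases past the start, and the PMS2 word 43 bases upstream.
MSH6, chr2:47783025-47783174, plus strand: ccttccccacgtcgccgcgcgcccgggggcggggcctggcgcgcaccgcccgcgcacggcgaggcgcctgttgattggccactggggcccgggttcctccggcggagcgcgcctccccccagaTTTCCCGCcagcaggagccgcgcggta
MSH3, chr5:80654532-80654681, plus strand: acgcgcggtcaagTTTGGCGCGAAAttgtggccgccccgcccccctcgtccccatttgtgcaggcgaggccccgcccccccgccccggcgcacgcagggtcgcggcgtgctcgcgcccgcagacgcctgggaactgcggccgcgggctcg
EXO1, chr1:241848084-241848233, plus strand: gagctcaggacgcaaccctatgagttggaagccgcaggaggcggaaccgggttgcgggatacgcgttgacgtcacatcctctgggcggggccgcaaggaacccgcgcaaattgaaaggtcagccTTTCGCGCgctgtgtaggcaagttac
PMS2, chr7:6009077-6009226, minus strand: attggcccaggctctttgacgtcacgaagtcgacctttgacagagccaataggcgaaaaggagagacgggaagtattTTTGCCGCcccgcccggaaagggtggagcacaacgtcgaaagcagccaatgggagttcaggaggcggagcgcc

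Base excision repair starts with glycosylases, which cut out damaged bases. UNG, which removes uracil, read 5.01 on replicate 1 and 4.39 on replicate 2, and OGG1, which removes oxidised guanine, read 4.07 and 3.93. MUTYH, which removes adenine paired with oxidised guanine, read 3.61 and 3.60. These 3 passed the olfactory threshold only. NTHL1, which acts on oxidised pyrimidines, read 3.54 and 2.64 and so passed on replicate 1 only. The NEIL glycosylases, also specific for oxidised bases, differed among themselves in their calls. NEIL1 read 2.83 and 2.76, under the olfactory threshold on both arrays, but by less than the spread of a single array. NEIL2 read 3.50 and 3.58, over that threshold on both. NEIL3, known for its expression in dividing cells, read 6.83 and 6.84, above the second threshold. Of the 7 glycosylases, NEIL3 alone passed the second threshold on both arrays, beside 17.0% of all genes.

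The shared later steps of base excision repair gave signals above the second threshold for 3 of 5 genes, beside 17.0% of all genes. The endonuclease APEX1, which nicks the strand at the abasic site, read 8.92 on replicate 1 and 8.73 on replicate 2. PARP1, the sensor of strand breaks, read 6.75 and 6.13. The scaffold XRCC1 read 6.32 and 6.30, nearly the same on both arrays. Its ligase partner LIG3 read 5.31 and 4.41, and the gap-filling polymerase POLB read 4.19 and 4.51. Neither passed the second threshold on either array. In this pathway 10 of 12 genes (83.3%) cleared the olfactory threshold and 4 (33.3%) also the second, beside 55.8% and 17.0% of all genes. On replicate 2, 9 of 12 were lower, beside 52.6% of all genes. UNG and PARP1 share their names with 3 and 2 pseudogenes, so their signals carry that uncertainty.

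MGMT, which repairs alkylated guanine by direct transfer and whose promoter methylation is a known marker of response to alkylating drugs, read 3.85 on replicate 1 and 3.28 on replicate 2. On both arrays it cleared the olfactory threshold but not the second. At the stricter 99th percentile of the olfactory receptors (3.60 and 3.76) it passed on replicate 1 only. Its promoter window held 45 CpG dinucleotides, and its upstream stretch is shown because the design text of the series concerns DNA methylation. Capitals mark the 36 CpG dinucleotides among the 220 bases before and 30 bases from the annotated start. The arrays did not measure methylation.
MGMT, chr10:129467021-129467270, plus strand: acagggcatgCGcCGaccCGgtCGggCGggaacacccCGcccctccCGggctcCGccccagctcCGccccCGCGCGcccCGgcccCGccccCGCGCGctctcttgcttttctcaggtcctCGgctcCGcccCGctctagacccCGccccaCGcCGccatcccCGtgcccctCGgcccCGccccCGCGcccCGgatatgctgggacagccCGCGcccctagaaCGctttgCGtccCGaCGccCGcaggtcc

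Nucleotide excision repair had no member above the second threshold on both arrays. The helicase genes of the TFIIH complex, which open the strands around a lesion, read 5.11 on replicate 1 and 4.87 on replicate 2 for ERCC2, and 5.30 and 4.88 for ERCC3. XPA, which verifies the damage, read 4.55 and 5.01. The genes of the endonuclease that cuts on the upstream side read 4.40 and 3.90 for ERCC1, and 4.45 and 4.50 for ERCC4. All 5 of these were above the olfactory threshold on both arrays. ERCC8, which acts when RNA polymerase stalls at a lesion, read 2.94 and 2.78, under the olfactory threshold by less than the 0.28 spread of a single array. ERCC5, the other endonuclease, and ERCC6, the partner of ERCC8 in transcription-coupled repair, were not analysed here. The count was therefore 5 of 6 above the olfactory threshold and 0 of 6 above the second, beside 17.0% of all genes.

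Among the Fanconi anaemia genes 5 of 7 (71.4%) passed the olfactory threshold and 2 (28.6%) the second, beside 55.8% and 17.0% of all genes. FANCI, a partner in the pair that is ubiquitinated at a crosslink, read 6.40 on replicate 1 and 6.65 on replicate 2. FANCL, the ubiquitin ligase of the core complex, read 5.56 and 5.87. These were the members above the second threshold, FANCL on replicate 1 by less than the spread of a single array. The DNA translocase FANCM read 4.23 and 4.55, and FANCG, a core complex subunit, read 4.77 on both arrays. The core subunits FANCE (3.60 and 3.11), FANCF (2.92 and 2.87) and FANCC (2.52 on both arrays) did not reach the second threshold. FANCE passed the olfactory threshold on replicate 2 by less than the spread of a single array. FANCF missed the olfactory threshold on both arrays by less than the spread of a single array, whereas FANCC was under it by more than that spread. The deposited values of FANCC and FANCG were identical on the 2 arrays, as were those of 962 of the 18404 genes, which does not show a smaller error. FANCC is the member with an E2F-like word whose signal was under the olfactory threshold, so its stretch is shown, from 180 bases before the start, with both words in capitals, 172 and 46 bases upstream.
FANCC, chr9:95317680-95317889, minus strand: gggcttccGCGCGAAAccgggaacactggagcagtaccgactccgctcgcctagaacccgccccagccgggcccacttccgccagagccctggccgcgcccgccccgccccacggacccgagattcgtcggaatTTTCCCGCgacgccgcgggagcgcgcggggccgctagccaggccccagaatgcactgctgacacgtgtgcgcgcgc

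Homologous recombination was measured by 12 genes, and on both arrays all 12 cleared the olfactory threshold, beside 55.8% of all genes. The MRE11-RAD50-NBN complex, which binds and trims broken ends, read 5.41 on replicate 1 and 5.61 on replicate 2 for MRE11, which the array annotation lists under an older symbol, 7.24 and 7.32 for RAD50, and 6.20 and 6.44 for NBN. All 3 subunits passed the second threshold, but MRE11 did so on replicate 1 by a margin far smaller than the spread of a single array. BRCA1, a ubiquitin ligase that promotes resection of broken ends, read 5.34 and 6.02, and its partner BARD1 read 4.83 and 5.12. BRCA1 passed the second threshold on replicate 2 only and BARD1 on neither array. BRCA1 and MRE11 each share their name with 1 pseudogene, so their signals are uncertain to that extent. PALB2, which bridges BRCA1 to BRCA2, read 6.21 and 5.62, and the helicase BRIP1 read 6.36 and 6.30. BLM, the helicase that dissolves recombination intermediates, read 7.10 and 6.92.

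RAD51C, XRCC2 and XRCC3, which act in strand exchange, did not share a call. RAD51C read 6.73 on replicate 1 and 7.34 on replicate 2, above the second threshold on both. XRCC2 read 3.91 and 4.41, and XRCC3 read 4.44 and 4.38. These last 2 were above the olfactory threshold only, as was the strand exchange translocase RAD54L (5.18 and 4.65). In all, 7 of 12 recombination genes (58.3%) were above the second threshold on both arrays, beside 17.0% of all genes. Over the 12 genes the differences between the arrays ran from -0.59 to 0.68.

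The signalling kinases passed the olfactory threshold in 4 of 4 cases and the second in 2, beside 55.8% and 17.0% of all genes. ATM, which responds to broken ends, read 6.26 on replicate 1 and 6.74 on replicate 2, and ATR, which responds to stalled forks, read 5.53 and 4.95. Of the downstream kinases, CHEK1 read 6.62 and 6.52 and CHEK2 read 3.50 and 3.20. ATM and CHEK1 were above the second threshold on both arrays and ATR on replicate 1 only. CHEK2 passed the olfactory threshold but not its stricter 99th percentile, and 6 pseudogenes carry its name. The difference of replicate 2 minus replicate 1 was 0.47 for ATM and -0.58 for ATR, and it could not be tested.

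In end joining the genes of end binding and those of ligation fell on different sides of the second threshold. XRCC5, which encodes Ku80 of the end-binding heterodimer, read 8.36 on replicate 1 and 8.12 on replicate 2, and PRKDC, the catalytic subunit of the DNA-dependent kinase, read 7.85 and 8.04. The ligase LIG4 read 4.35 and 4.82, and its scaffold XRCC4 read 4.57 and 4.03. All 4 genes were above the olfactory threshold, and XRCC5 and PRKDC were also above the second, beside 55.8% and 17.0% of all genes.

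**Figure D2:**
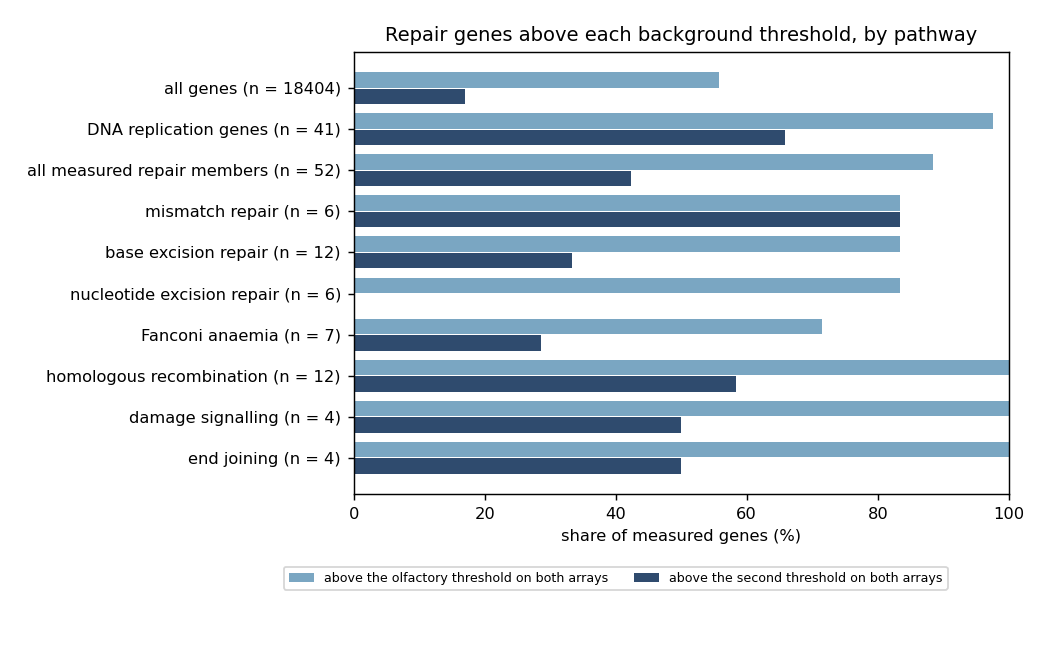
Share of measured genes (%) above the olfactory threshold (light bars) and above the second threshold (dark bars) on both arrays, for all genes, the DNA replication list, all measured repair members and each pathway with more than 1 measured gene. Mismatch repair has 5 of 6 genes above each threshold, and nucleotide excision repair 5 of 6 above the first and 0 of 6 above the second.

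The spread between the arrays was of similar size for repair genes and for all genes. For replicate 2 minus replicate 1 the SD was 0.38 over the members, where it was 0.39 over all genes, and the median was -0.06, where it was -0.04. On the log2 scale 0 of 52 members differed by over 1, beside 1.96% of all genes. By this difference 30 of 52 members were lower on replicate 2, beside 52.6% of all genes, 20 of 52 were higher, beside 42.1%, and 2 were equal. At a difference of 0.5, a limit chosen after the values were seen, 13 of 52 members (25.0%) differed by more, beside 17.5% of all genes. Those lower on replicate 2 were 10 of 52, a larger share than the 9.58% of all genes. Those higher were 3 of 52, a smaller share than the 7.95% of all genes.

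The 10 genes lower on replicate 2 by more than 0.5 included 4 of base excision repair. NTHL1 and LIG3 each differed by -0.90, which for LIG3 is 1.86-fold, and PARP1 and UNG each by -0.62. The others were MGMT (-0.58), ERCC1 (-0.50), PALB2 (-0.59), RAD54L (-0.53), ATR (-0.58) and XRCC4 (-0.54). The 3 genes higher on replicate 2 all belonged to homologous recombination: BRCA1 (0.68, or 1.60-fold), RAD51C (0.61) and XRCC2 (0.50). Of 16 further recombination genes described below, 0 were higher by more than 0.5 and 2 were lower, with a median difference of -0.12. Of the 9 promyelocyte and myeloid markers 6 also read lower on replicate 2, beside 52.6% of all genes. The median difference over the 9 was -0.26. The largest falls were those of the granule proteases CTSG (8.99 on replicate 1 and 7.24 on replicate 2) and PRTN3 (7.95 and 6.47). The other 3 markers read higher on replicate 2: ELANE (4.47 and 4.71), AZU1 (3.01 and 3.19) and MYB (9.29 and 9.53). The part of these markers in the repair genes' differences was not tested, and with 1 array on each side no difference has a replicate check.

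**Figure D3:**
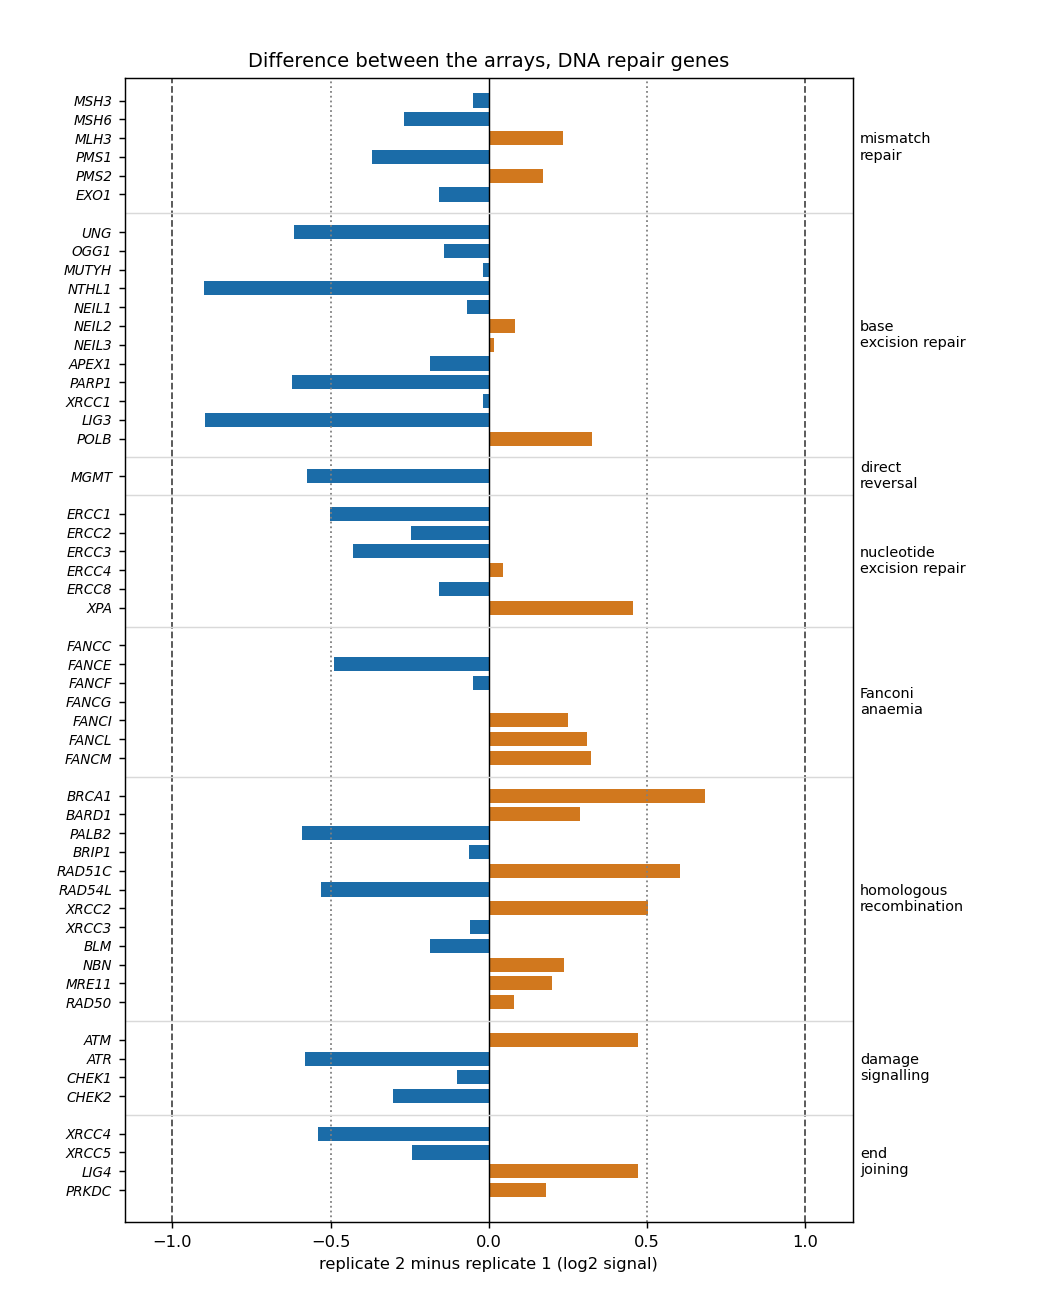
Difference between the arrays (replicate 2 minus replicate 1, log2 signal; horizontal axis) for each measured repair gene by pathway; blue bars are lower and orange bars higher on replicate 2, with dotted lines at 0.5 and dashed lines at 1 in each direction. No bar reaches the dashed lines, and 10 bars to the left and 3 to the right pass the dotted ones.

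A further list held 113 other genes of these pathways and of translesion synthesis. Of these, 102 were measured. On both arrays 92 (90.2%) cleared the olfactory threshold and 40 (39.2%) also the second, beside 55.8% and 17.0% of all genes. The same shares of all genes stand beside the counts by pathway that follow. For mismatch repair 7 of 8 passed the olfactory threshold. The sliding clamp PCNA read 7.97 on replicate 1 and 8.12 on replicate 2, the clamp loader subunit RFC4 7.31 and 7.69, and the meiotic MSH4 1.44 and 1.33. MSH4 was the gene of this list that did not pass.

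Base excision repair had 10 of 12 of its other genes above the olfactory threshold, with the flap endonuclease FEN1 at 7.43 and 6.88, the break sensor PARP2 at 6.85 and 6.84 and the polymerase POLL at 2.67 and 3.12. For direct reversal by demethylation all 3 passed: ALKBH2 read 5.79 and 4.89, ALKBH3 5.10 and 5.20 and ALKBH1 3.21 and 3.20. Nucleotide excision repair had 15 of 15 past the olfactory threshold and 5 past the second, where 0 of its 6 members reached the second. The TFIIH kinase subunit CCNH read 6.43 and 6.46, the TFIIH core subunit GTF2H1 5.81 and 5.67, and UVSSA, which acts in transcription-coupled repair, 3.62 and 3.45. GTF2H5, the smallest TFIIH subunit, was the only one of the 102 genes to differ by more than 1 between the arrays (-1.03), and it was named after its value was seen.

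Of 12 further Fanconi anaemia genes 10 passed the olfactory threshold. UBE2T, the conjugating enzyme that works with FANCL, read 7.29 on replicate 1 and 7.09 on replicate 2, WDR48, a cofactor of deubiquitination, 6.30 and 6.07, and FAAP20 2.80 and 3.08. For homologous recombination 14 of 16 passed, with SEM1, a small BRCA2-binding protein that is also a proteasome subunit, at 9.55 and 9.05, the single-strand binding subunit RPA2 at 6.08 and 5.91 and the meiotic recombinase DMC1 at 2.42 and 2.14. FAAP20 passed on replicate 2 only and DMC1 on neither array.

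Damage signalling had 14 of 14 further genes past the olfactory threshold and 8 past the second, with TOPBP1, an activator of ATR, at 7.68 and 7.63, the kinase WEE1 at 6.25 and 6.31 and the clamp subunit RAD9A at 4.89 and 4.29. End joining had 5 of 7, among them XRCC6, the Ku70 partner of XRCC5, at 7.45 and 6.98 and PAXX at 5.80 and 5.88. DNTT, the polymerase of lymphoid receptor gene assembly, read 2.00 and 1.64 and did not pass. Translesion synthesis, which copies past lesions, had 14 of 15, with UBE2V2 at 6.80 and 7.04, POLI at 6.61 and 6.53 and POLN at 2.68 and 2.82.

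E2F-like words were found in the promoter windows of 7 of the 46 members in the RefSeq table (15.2%), beside 5.51% of the 14230 measured genes in it. NEIL2, POLB, FANCI, NBN, XRCC5 and PRKDC had no window there. Each word contains a CpG, and members had CpG-rich windows: among the 10301 measured genes with at least 15 CpG dinucleotides, the lowest count of any member, the share was 6.93%. By window rather than gene, 8 of 69 member windows (11.6%) held a word, beside 3.31% of all 35116 windows. A gene with several annotated starts has several windows and was counted if any of them matched. The 7 members were MSH3, MSH6, EXO1, PMS2, UNG, XRCC2 and FANCC, of which 6 were above the olfactory threshold and 4, all of mismatch repair, above the second. Of the 39 members without such a word 34 were above the olfactory threshold. Over all measured genes with a window, 71.7% of those with a word and 57.3% of those without were above it, a comparison not matched on CpG count. The remaining stretches with a word, of UNG and XRCC2, are shown for comparison with those of mismatch repair, with the UNG word 63 bases upstream and the XRCC2 word, on the opposite strand, 21 bases past the start.
UNG, chr12:109098052-109098201, plus strand: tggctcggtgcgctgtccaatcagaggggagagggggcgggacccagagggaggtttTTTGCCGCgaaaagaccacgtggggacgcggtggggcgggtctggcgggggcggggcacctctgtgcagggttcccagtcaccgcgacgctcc
XRCC2, chr7:152676112-152676261, minus strand: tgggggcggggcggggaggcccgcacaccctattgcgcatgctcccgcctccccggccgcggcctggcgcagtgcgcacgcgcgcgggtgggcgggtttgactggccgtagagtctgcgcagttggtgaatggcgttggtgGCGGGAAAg

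Other words were found in members as follows. The ETS-like word CCGGAAGT was in the windows of 8 of 46 members (17.4%): OGG1, NTHL1, ERCC1, ERCC3, PALB2, MRE11, RAD50 and LIG4. The share was 7.15% of measured genes and 9.28% of those with at least 15 CpG dinucleotides. By window it was 11.6% of member windows, beside 4.14% of all windows. CCAAT was in 27 of 46 (58.7%), beside 42.2% of measured genes and 42.0% of those with at least 15 CpG dinucleotides. By window it was in 50.7% of member windows, beside 34.6% of all windows. A word of the factor NRF1, whose letters are not printed here, was in the windows of MLH3 and NEIL3 (4.35% of 46). The share was 2.04% of measured genes and 2.76% of those with at least 15 CpG dinucleotides. By window it was 2.90% of member windows, beside 1.24% of all windows. Of the 8 members with the ETS-like word, PALB2, MRE11 and RAD50 were above the second threshold on both arrays and NTHL1 was not above the olfactory one. All words were searched on both strands, and a gene can hold several.

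The richest promoter windows of the members held 15 to 45 CpG dinucleotides, with a median of 27.5, where the median of all measured genes was 25. Of measured genes with 10 or fewer CpG dinucleotides in their richest window, 21.8% were above the olfactory threshold, and 0 members were among them. With 11 to 20, 6 of 8 members were above it, beside 58.8% of measured genes in that range. With 21 to 30 the count was 19 of 21, beside 71.5%, and with 31 to 40 it was 14 of 14, beside 71.3%. The 3 members with 41 or more were MGMT (45), NTHL1 (42) and FANCC (41), and of these 3 only MGMT cleared the olfactory threshold on both arrays, beside 71.4% of measured genes in that range. These counts are small and describe the reference sequence, not the methylation of the cells.

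**Figure D4:**
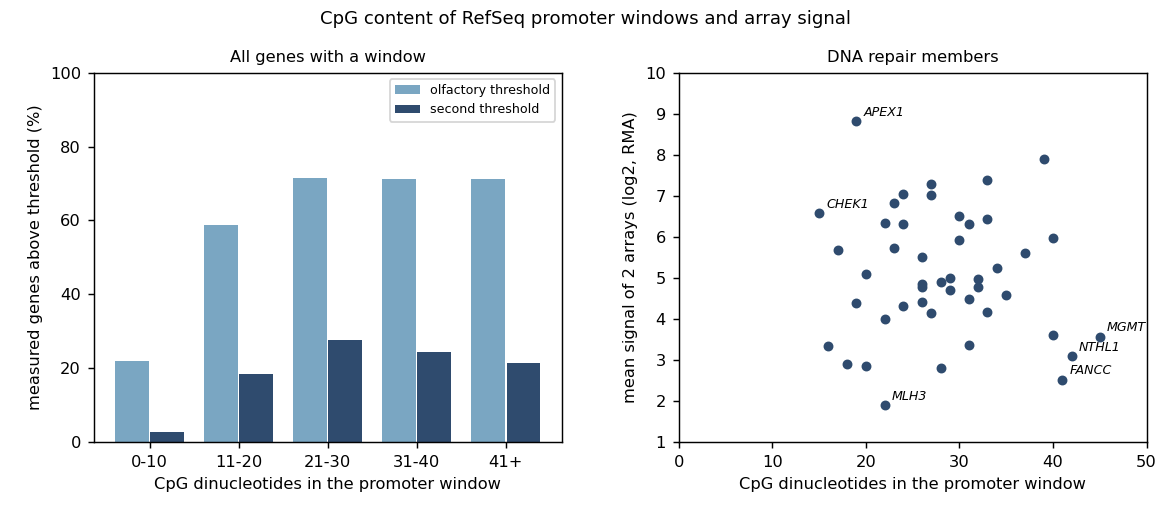
Left, share of all measured genes (%) above the olfactory (light) and second (dark) threshold on both arrays, by the number of CpG dinucleotides in the richest RefSeq promoter window of the gene; right, mean signal of the 2 arrays (log2, RMA) against that number for the 46 members with a window. The share over all genes rises from 21.8% with 10 or fewer to 71.5% with 21 to 30, and the members lie between 15 and 45.

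Some repair genes lay head to head with another gene. Of the 46 members with a window, 19 (41.3%) had the start of an opposite-strand gene within 1000 bases upstream of their own start, beside 23.0% of the 14230 measured genes with a window. The partner was measured in 14 such pairs of 13 members. It was above the olfactory threshold in each of the 14, beside 55.8% of all genes. That share was 71.5% for measured genes with 21 to 30 CpG dinucleotides in their richest window. A share over all genes with such a neighbour was not computed. In 8 pairs both genes moved the same way between the arrays and in 6 the opposite way. BRCA1 and the noncoding gene NBR2, whose starts lie 193 bases apart, were both higher on replicate 2: NBR2 read 4.81 on replicate 1 and 5.96 on replicate 2. NBR1, which has a start near an alternative BRCA1 start, read 3.65 and 4.65. PALB2 and DCTN5, 156 bases apart, moved apart, with DCTN5 at 5.44 and 6.37 while PALB2 was lower on replicate 2. XRCC4 and TMEM167A (4.34 and 5.18) likewise differed in sign.

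In 2 of the 14 pairs the partner cleared the olfactory threshold on both arrays, whereas the repair gene did not. NDUFAF2, an assembly factor of the respiratory chain that starts 135 bases from ERCC8, read 5.16 on replicate 1 and 5.03 on replicate 2, where ERCC8 was under the olfactory threshold. TSC2, a growth regulator 151 bases from NTHL1, read 5.19 and 4.79, where NTHL1 passed on replicate 1 only. ATM and NPAT, a regulator of histone genes 429 bases away, were both above the second threshold, with NPAT at 7.09 and 7.24. The BRCA1 stretch is shown because it spans the interval to the NBR2 start, from 200 bases before the BRCA1 start to 30 bases from it on. Capitals mark its 16 CpG dinucleotides.
BRCA1, chr17:43125335-43125564, minus strand: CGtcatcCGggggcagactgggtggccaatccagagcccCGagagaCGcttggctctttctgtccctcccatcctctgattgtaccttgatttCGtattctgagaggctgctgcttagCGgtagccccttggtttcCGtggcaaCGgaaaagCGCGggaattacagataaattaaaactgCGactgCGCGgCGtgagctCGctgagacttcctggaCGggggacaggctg

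**Figure D5:**
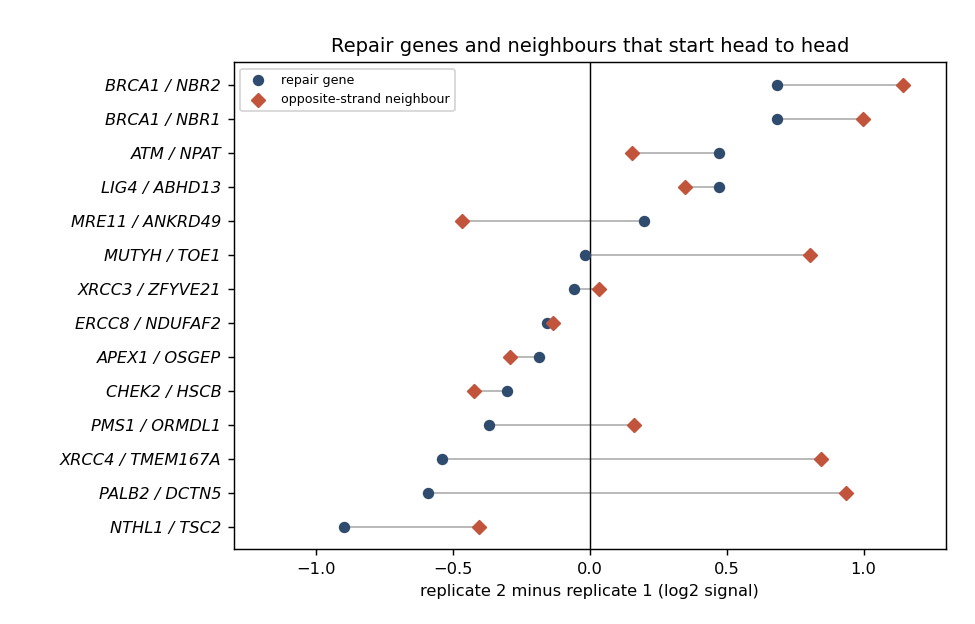
Difference between the arrays (replicate 2 minus replicate 1, log2 signal; horizontal axis) of 13 repair genes (circles) and the measured opposite-strand neighbours that start within 1000 bases upstream (diamonds), 1 line per pair. Both symbols lie on the same side of 0 in 8 of the 14 pairs and on opposite sides in 6.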

How the data were processed

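Expression was measured on 2 arrays of 1 group. RNA was isolated with Trizol and freed of DNA, and 200 ng of each sample was amplified and labelled with NuGEN kits, per the labels' protocols. The authors deposited log2 signals made with RMA, per the submitters' processing notes. The log base, the software version and the set of arrays in the normalization are not given in those notes. Base 2 was taken, since the highest value of 12.9, read as a natural log, would stand for 407306, above the 65535 that a 16-bit scanner can record. RMA scales arrays to a shared distribution, which hides any difference in total RNA per cell. Scanner files were not used here.

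Of 32321 probe sets, 19158 carried 1 gene symbol, 1388 several and 11775 were not listed in the platform annotation. Only the first kind was named, with symbols updated through Entrez IDs, of which 19128 were found in the RefSeq table (GRCh38.p14). Probe sets of a gene were averaged. The genome build behind the array annotation is not known, so coordinates and sequences are those of the RefSeq promoter table.

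The members and lists were chosen with earlier results of these data known. Every measured member was named. From the other repair genes of each pathway the text names the highest 2 genes and the lowest by mean signal. With 1 group there was no test, and the number of arrays limits the precision. The calculation of the olfactory threshold and the normalizations were run on simulated arrays, where silent genes were drawn like the olfactory receptors. Such a run checks the calculation, not the fit of the threshold to real background, and the second threshold was not simulated. Alternatives were quantile normalization, loess, the highest probe set, other thresholds, each array alone, leaving out members with pseudogenes and a filter on dim genes. Python 3.11.15, numpy 2.4.6, pandas 2.3.3 and statsmodels 0.14.6 were used.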

Additional observations from a re-analysis of the deposited data

How the results depend on the processing

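No paired analysis was possible because the series holds a single group of samples. Under the alternatives 102 values were recomputed. Of these 89 remained close to the reported one, and 13 did not. Close meant a count to within 1.5 times, and a median signal or difference to within 0.23, the SD of the array medians. For the median difference this limit is wide, since a change of sign could also count as close. Its recomputed values ran from -0.06 to -0.04, where the reported one was -0.06. When the threshold was taken from the second background set, 22 members were above it in place of 46, and by pathway 4 of base excision repair, 0 of direct reversal, 0 of nucleotide excision repair, 2 of Fanconi anaemia, 7 of homologous recombination, 2 of damage signalling and 2 of end joining; the other repair genes numbered 40 in place of 92. The threshold itself is higher there, which lowers these counts by construction. With the olfactory threshold set at the 99th percentile, 41 members remained above, and direct reversal had 0, since MGMT was lost with MUTYH, NEIL2, FANCE and CHEK2. The median signal of members was 4.98; on each array alone it was 4.91 (without replicate 1) and 5.24 (without replicate 2), and 5.37 with members above the olfactory threshold only, because dim members are left out. Members differing between the arrays numbered 13 at 0.5, an alternative chosen after seeing the data, in place of 0 at 1. On each array alone 46 and 47 members were above the olfactory threshold. Quantile normalization and loess left the counts of members at 46 and 22, on values that RMA had already scaled to a shared distribution. The highest probe set could not change any member, since each of the 52 rested on 1 probe set. Those values are among the 89 by construction. The background correction, which needs scanner files, was not examined.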
